A study of Homo sapiens with 12 samples.

Results

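YWHAH, LGI3, RNASE1, FN1, TMEM2, ARMC9, CSRP2, LUM and SLC7A8 are 9 genes of 501Mel melanoma cells whose response to TCDD was smaller in the presence of resveratrol (RSV) than in its absence. They are 9 of the 16080 genes that had enough reads to be tested, out of 56638 gene symbols counted, and all 9 passed the filter on low counts. The genes were selected on measured values: each has a negative RSV by TCDD interaction, which is the log2 effect of TCDD with RSV minus the log2 effect of TCDD without it. The vehicle, TCDD, RSV and RSV+TCDD libraries therefore chose the genes, and their values in these libraries are given below as a description with no test. The only comparison that uses none of these libraries is RSV+Vem against Vem, and it is the comparison tested on the 9 genes.

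501Mel, an established line of human melanoma cells, was treated during 48 h with DMSO (vehicle), 10 nM TCDD, 5 µM RSV, 1 µM Vemurafenib (Vem), 5 µM RSV with 1 µM Vem, or 5 µM RSV under TCDD, and RNA was sequenced in 12 libraries, 2 per group. For the RSV+TCDD libraries the sample labels give 1 nM TCDD, whereas the treatment protocol gives 10 nM. If the labels hold, the addition of RSV and a lower dose of TCDD cannot be told apart in these libraries. All groups are a single cell line at a single time point, and nothing in the labels says that the libraries of a group came from separate cultures, so p-values measure the spread between these libraries, which may be technical.

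TCDD is a dioxin and a strong agonist of the aryl hydrocarbon receptor (AhR). The bound receptor enters the nucleus, pairs with ARNT and binds xenobiotic response elements (XRE), whose core is GCGTG, in genes such as CYP1A1, a cytochrome that oxidises aromatic compounds. RSV is a plant polyphenol known as an antagonist of AhR, and Vem is an inhibitor of mutant BRAF kinase. The study added RSV to TCDD to ask whether it counteracts AhR ligands. Among the 9 products, fibronectin (FN1) and lumican (LUM) are parts of the extracellular matrix on which tumour cells attach and move, and fibronectin is known as a marker of dedifferentiated melanoma.

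Counts on genes ranged from 8378655 to 25076925 per library, in RSV+Vem replicate 2 and vehicle replicate 2, and RIN, a score of RNA integrity, ranged from 8.6 to 9.7, with the lowest values in the RSV+Vem libraries. All 7 melanocytic markers were above 1 CPM (counts scaled to library size with TMM factors) in every library. Their summed level was 19378 to 20476 CPM with vehicle, 26251 to 27187 under TCDD, 11108 to 12304 with RSV, 16504 to 17418 with RSV+TCDD, 48206 to 51552 with Vem and 19659 to 21037 with RSV+Vem. The summed markers of other cell types reached at most 7.30 CPM for fibroblasts, 26.0 for keratinocytes, 1.92 for endothelium and 4.04 for leukocytes. The summed melanocytic level was thus higher with TCDD than with vehicle and lower with RSV, in the same libraries that define the genes, and its part in their levels was not tested. Single markers reached 22338 CPM for PMEL, 16729 for TYRP1 and 7655 for DCT, against at most 1446 for MITF, SOX10, MLANA and TYR. The sum therefore does not show that each marker moved this way. The keratinocyte maximum was that of KRT10 alone.

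The selection left a narrow set. Of the tested genes, 24 were called in the RSV by TCDD interaction at an adjusted p below 0.05 (edgeR quasi-likelihood test with Benjamini-Hochberg adjustment), which is 0.149% of all genes, 2 with a positive and 22 with a negative interaction. The 9 genes were chosen on this interaction and all are among those 22, beside 13 genes outside the set. Without regard to size, 8125 of the 16080 genes had a negative interaction. The member with the smallest interaction was SLC7A8 (-0.67 ± 0.12, SE). The first genes that did not pass the threshold were ICOS (-1.69) and DYDC2 (-1.74). Since the 13 genes outside the set did pass, the threshold is not the edge of the set. Ordered by p, the 9 genes lay between rank 2 (YWHAH) and rank 13 (SLC7A8) of the 24, so the set is not independent of rank. CYP1A1 (rank 1), NQO1 (3), RP11-1220K2.2 (6) and RP11-429E11.2 (11) ranked above SLC7A8 and are outside the set. Interactions of the 9 genes ran from -1.95 to -0.67 with a median of -1.02, beside -0.00347 over all genes.

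Since the genes share this response, the DNA before their start sites is shown with the XRE core in capitals. RefSeq promoters, 250 bases before to 50 after a start site on GRCh38.p14, were held for 7 of the 9 genes and 12 start sites. Each of the 12 matched the gene's strand of its own GRCh37 chromosome exactly once, and GRCh37 coordinates are given. Other chromosomes were not searched. LUM and LGI3 were not matched. The search for GCGTG covered both strands, so that CACGC marks a core on the opposite strand. It was found at 3 of the 12 start sites, in ARMC9, CSRP2 and SLC7A8, whereas 36.54% of the 35116 promoters in the RefSeq table hold it. The 2 sequences with a core and the 3 without are the stretches before the annotated gene, 5′ to 3′ on the gene's strand, and the SLC7A8 site is shown as a short window because it lies in an annotated exon. The FN1 stretch overlaps annotated exon sequence of another gene, FN1-DT.
ARMC9, chr2:232063095-232063259, plus strand: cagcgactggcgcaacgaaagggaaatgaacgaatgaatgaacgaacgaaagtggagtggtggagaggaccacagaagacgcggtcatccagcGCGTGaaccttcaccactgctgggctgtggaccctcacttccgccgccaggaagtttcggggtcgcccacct
CSRP2, chr12:77272804-77273049, minus strand: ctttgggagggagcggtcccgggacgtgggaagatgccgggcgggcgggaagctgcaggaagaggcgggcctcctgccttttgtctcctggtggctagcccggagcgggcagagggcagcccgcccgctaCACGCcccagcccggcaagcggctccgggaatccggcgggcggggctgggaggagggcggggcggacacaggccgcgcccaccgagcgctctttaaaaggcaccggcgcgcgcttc
SLC7A8, chr14:23623632-23623660, minus strand: cgtagccacaccCACGCccccacaggccc
FN1, chr2:216300797-216301041, minus strand: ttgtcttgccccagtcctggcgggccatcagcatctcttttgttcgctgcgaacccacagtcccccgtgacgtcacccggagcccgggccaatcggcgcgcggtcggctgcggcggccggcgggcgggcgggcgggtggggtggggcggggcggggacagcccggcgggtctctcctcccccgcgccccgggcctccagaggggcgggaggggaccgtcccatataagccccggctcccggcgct
RNASE1, chr14:21271015-21271253, minus strand: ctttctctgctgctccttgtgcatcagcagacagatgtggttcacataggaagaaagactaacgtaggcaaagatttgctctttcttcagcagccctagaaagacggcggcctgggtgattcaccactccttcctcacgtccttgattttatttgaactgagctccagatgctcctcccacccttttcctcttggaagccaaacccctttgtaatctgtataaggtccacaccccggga
YWHAH, chr22:32340271-32340507, plus strand: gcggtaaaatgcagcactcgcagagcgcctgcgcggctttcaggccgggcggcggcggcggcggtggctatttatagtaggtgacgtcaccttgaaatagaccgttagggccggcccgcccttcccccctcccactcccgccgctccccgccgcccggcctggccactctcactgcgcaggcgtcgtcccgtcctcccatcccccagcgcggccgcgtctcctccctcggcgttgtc
The core starts at position -157 from the start site in ARMC9, -120 in CSRP2 and -46 in SLC7A8, where it is at 1 of 4 listed start sites. The other listed start site of CSRP2 (chr12:77260079) had no core. A match is a run of 5 letters and not a measured binding site, and a stretch without it says only that these letters are not in this window. GC content of the printed stretches was 49.37% in RNASE1, 58.79% in ARMC9 and between 70.89% and 76.33% in YWHAH, CSRP2 and FN1.

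The 9 genes lie on 6 chromosomes of GRCh37 and are not neighbours: chr2 holds FN1 (chr2:216225163-216300796) and ARMC9 (chr2:232063260-232241559), chr12 holds CSRP2 (chr12:77252489-77272803) and LUM (chr12:91496406-91505271), and chr14 holds RNASE1 (chr14:21269387-21271014) and SLC7A8 (chr14:23594504-23652883). YWHAH is at chr22:32340508-32353590, LGI3 at chr8:22004343-22014597, and TMEM2, now named CEMIP2, at chr9:74298282-74431606. The exons of 3 of them overlap other annotated exons: 105 bases of YWHAH are shared with a readthrough gene on its strand and 22 with YWHAH-AS1 on the other, 277 bases of SLC7A8 with a long noncoding RNA on its strand, and 89 bases of LGI3 with SFTPC on the opposite strand. These are at most 4.62% of a gene's exonic bases.

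Levels of different genes are compared only per length of exon. With vehicle, YWHAH had the highest level at 87.1 CPM per kb, followed by FN1 at 60.0, CSRP2 at 49.9, TMEM2 at 22.3 and SLC7A8 at 19.4. RNASE1 (5.56), LUM (4.70), LGI3 (1.67) and ARMC9 (1.13) were low on this scale. The exon lengths come from a later annotation than the one counted, and ARMC9 has 23370 annotated exonic bases against 1083 in RNASE1.

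Both TCDD libraries were above both vehicle libraries for all 9 genes, which the selection favours and which holds for 27.1% of all tested genes, and 6.73% of all genes were called for TCDD against vehicle. Both RSV+TCDD libraries were below both TCDD libraries for all 9, as for 36.3% of all genes. Because this is bulk RNA, fewer cells that express a gene and less RNA per cell cannot be told apart.

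**Figure D1:**
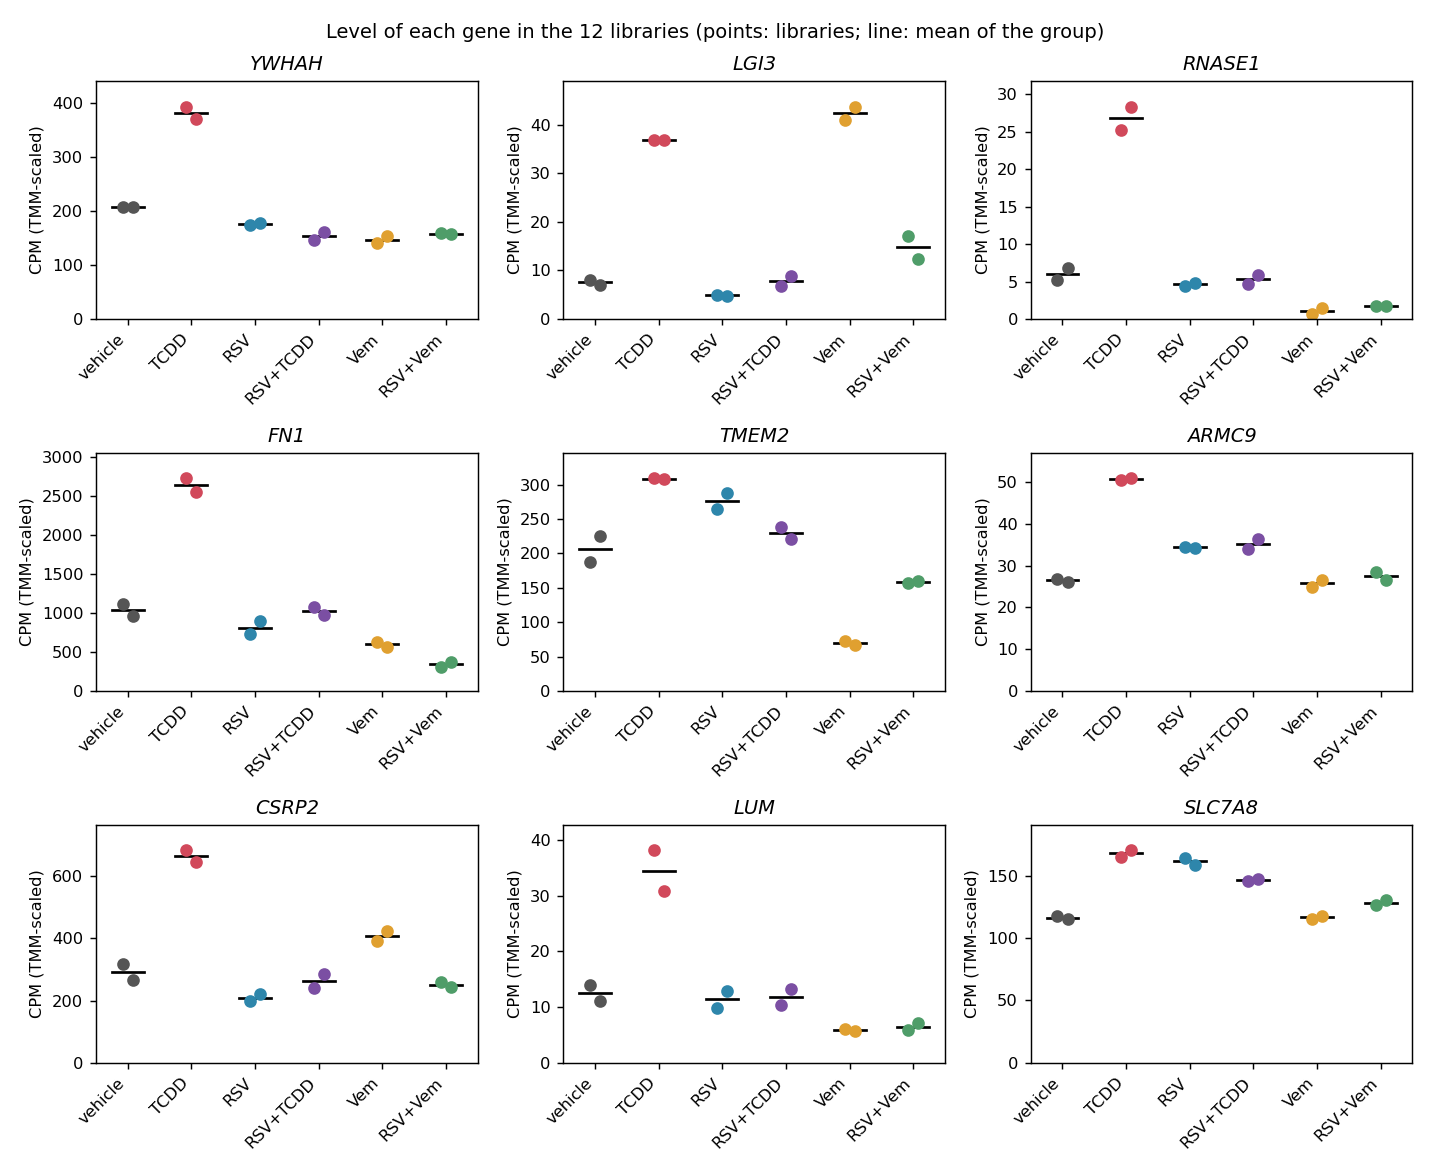
Level of each of the 9 genes in TMM-scaled CPM (vertical axes, starting at 0) in the 6 groups, with a point per library and a line at the mean of the 2 libraries. In each panel the TCDD points lie above the vehicle and RSV+TCDD points, while the Vem points lie high for LGI3 and CSRP2 and low for TMEM2 and RNASE1.

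Among the secreted products, FN1 encodes fibronectin, the glycoprotein to which integrins attach cells. FN1 was at 1110.1 and 956 CPM in the vehicle libraries, 2721 and 2544 under TCDD, 734 and 889 with RSV alone, and 1073 and 973 in the RSV+TCDD libraries. With Vem it was at 625 and 565 CPM, and with RSV+Vem at 306 and 374. The RSV+TCDD libraries overlapped the vehicle libraries and lay far below the TCDD libraries. The TCDD effect on FN1 was 1.35 on the log2 scale without RSV and 0.33 with it, an interaction of -1.02 ± 0.16 (SE, n = 2 per group, as for all interactions here).

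LUM encodes lumican, a small proteoglycan that binds collagen fibrils. Its level was 13.9 and 11.2 CPM with vehicle, 38.2 and 30.8 under TCDD, 9.89 and 13.0 with RSV alone, 10.4 and 13.2 with RSV+TCDD, 6.05 and 5.69 with Vem, and 5.80 and 7.20 with RSV+Vem. The vehicle, RSV and RSV+TCDD libraries overlapped each other, and the Vem and RSV+Vem libraries formed a lower pair of groups that also overlapped. TCDD gave 1.47 without RSV and 0.05 with RSV, an interaction of -1.42 ± 0.25.

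RNASE1 encodes a secreted ribonuclease that degrades extracellular RNA, and it had the largest interaction of the set. RNASE1 was at 5.21 and 6.84 CPM with vehicle, 25.2 and 28.4 under TCDD, 4.46 and 4.83 with RSV alone, and 4.66 and 5.94 in the RSV+TCDD libraries. Its lowest level of the 6 groups was with Vem, 0.626 and 1.54 CPM from 9 and 20 counts, and with RSV+Vem it was at 1.76 and 1.80 CPM from 33 and 16 counts. Vehicle, RSV+TCDD and RSV were neighbours in order of level and overlapped in turn. A TCDD effect of 2.14 without RSV became 0.19 with RSV, an interaction of -1.95 ± 0.29.

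LGI3 encodes a secreted leucine-rich repeat protein of the LGI family, whose members bind ADAM receptors at the cell surface. LGI3 was at 8.0 and 7.08 CPM with vehicle, 36.8 and 36.8 under TCDD, 4.94 and 4.78 with RSV alone, 6.74 and 8.81 with RSV+TCDD, 41.0 and 43.7 with Vem, and 17.2 and 12.4 with RSV+Vem. It was the only gene of the set whose highest level was reached with Vem, above TCDD with no overlap. The TCDD effect was 2.29 without RSV, the largest of the 9, and 0.68 with RSV, also the largest left, and the interaction was -1.61 ± 0.24.

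At the cell surface, TMEM2 encodes a transmembrane protein that has been described as a hyaluronidase. TMEM2 was at 188 and 225 CPM with vehicle, 309 and 308 under TCDD, 265 and 288 with RSV alone, 238 and 220 with RSV+TCDD, 72.4 and 67.2 with Vem, and 157 and 159 with RSV+Vem. RSV alone was the second highest group, and RSV+TCDD lay below RSV and overlapped vehicle. The TCDD effect was 0.58 without RSV and -0.27 with it, an interaction of -0.85 ± 0.13.

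SLC7A8 encodes LAT2, a transporter of neutral amino acids that works as a pair with the heavy chain SLC3A2. Its level was 118 and 115 CPM with vehicle, 165 and 171 under TCDD, 165 and 159 with RSV alone, 146 and 147 with RSV+TCDD, 116 and 118 with Vem, and 127 and 130.4 with RSV+Vem. TCDD and RSV alone gave close levels, with the lower TCDD library and the higher RSV library both at 165 CPM, and the libraries with both compounds lay below them and above vehicle. Its TCDD effect was 0.53 without RSV and -0.14 with it.

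Inside the cell, YWHAH encodes 14-3-3 eta, an adaptor that binds phosphorylated proteins. YWHAH was at 209 and 208 CPM with vehicle, 394 and 372 under TCDD, 174 and 178 with RSV alone, 147 and 162 with RSV+TCDD, 141 and 154 with Vem, and 160 and 157 with RSV+Vem. The RSV+TCDD libraries were below vehicle and below RSV alone. The TCDD effect was 0.88 without RSV and -0.19 with it, an interaction of -1.06 ± 0.12.

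CSRP2 encodes a LIM domain protein that bundles actin filaments. CSRP2 was at 316 and 267 CPM with vehicle, 684 and 644 under TCDD, 199.7 and 219 with RSV alone, 239.9 and 286 with RSV+TCDD, 392 and 424 with Vem, and 259.6 and 243 with RSV+Vem. Vem was the second highest group after TCDD, and RSV alone the lowest. The TCDD effect was 1.19 without RSV and 0.33 with it, an interaction of -0.86 ± 0.14.

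ARMC9 encodes a protein of the ciliary base that is mutated in Joubert syndrome. ARMC9 was at 26.8 and 26.1 CPM with vehicle, 50.4 and 50.9 under TCDD, 34.5 and 34.2 with RSV alone, 33.9 and 36.3 with RSV+TCDD, 24.8 and 26.6 with Vem, and 28.6 and 26.4 with RSV+Vem. RSV and RSV+TCDD overlapped, as did vehicle, Vem and RSV+Vem in order of level. ARMC9 had a TCDD effect of 0.94 without RSV and 0.03 with it, an interaction of -0.91 ± 0.15.

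**Figure D2:**
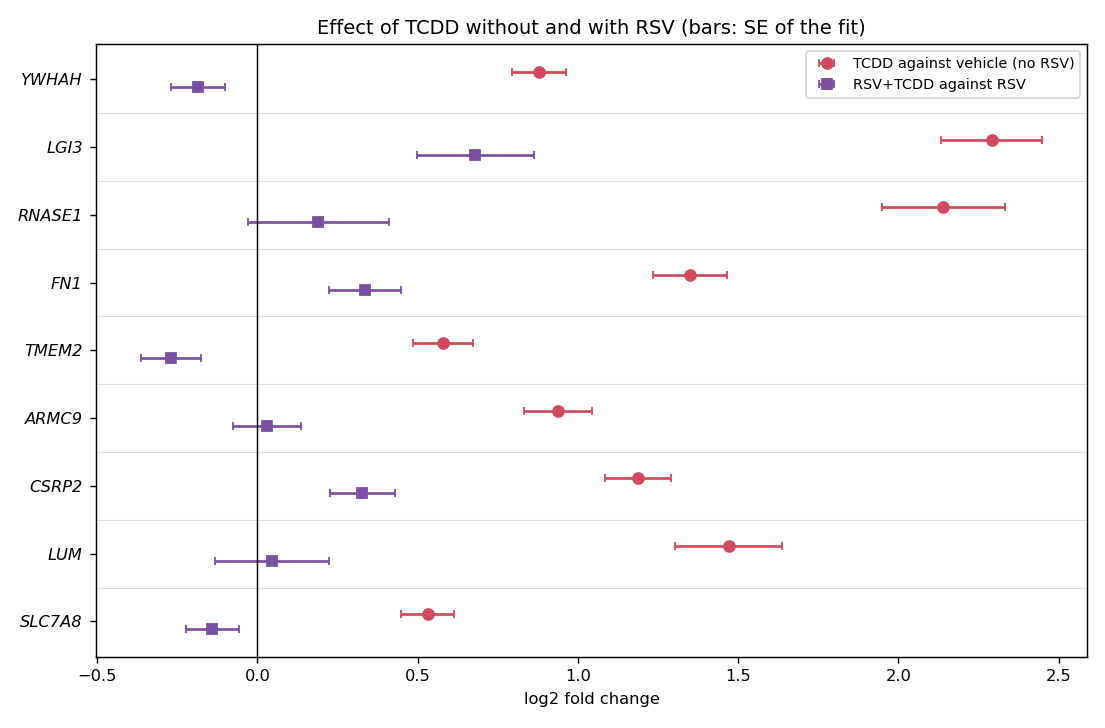
Log2 fold change (horizontal axis) of the 9 genes for TCDD against vehicle (circles) and for RSV+TCDD against RSV (squares), with bars of 1 SE of the fit and 2 libraries per group. Circles lie between 0.53 and 2.29, and squares between -0.27 for TMEM2 and 0.68 for LGI3.

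The interaction was made up in different ways. For FN1, LUM, RNASE1, LGI3, YWHAH and CSRP2 the log2 change by RSV alone against vehicle was negative, from -0.63 for LGI3 to -0.12 for LUM, and RSV+TCDD against TCDD was from -2.33 for RNASE1 to -1.31 for YWHAH. For TMEM2, ARMC9 and SLC7A8 RSV alone gave positive values of 0.42, 0.38 and 0.48, and RSV+TCDD against TCDD gave -0.43, -0.53 and -0.20. In SLC7A8, 70.8% of the interaction was the positive change with RSV alone and 29.2% the negative change in the presence of TCDD. In TMEM2 and ARMC9 the change with RSV alone made up 49.5% and 41.6%. Expressed as a share of the log2 TCDD effect, the part left with RSV was 29.7% in LGI3, 27.6% in CSRP2, 24.8% in FN1, 8.88% in RNASE1, 3.12% in ARMC9 and 3.07% in LUM. With RSV the TCDD effects on TMEM2 (-0.27 ± 0.09, SE), SLC7A8 (-0.14 ± 0.08) and YWHAH (-0.19 ± 0.09) were of opposite sign. The selection favours low values of this effect, so these signs were not tested. RSV+TCDD against vehicle ranged from -0.43 for YWHAH to 0.41 for ARMC9. Of all tested genes, 40.7% were called for RSV against vehicle. The positive values for TMEM2, ARMC9 and SLC7A8 kept their sign in each setting run for this comparison, while LUM turned positive without vehicle replicate 1 or without RSV replicate 1. The vehicle and RSV libraries helped choose the genes, and choosing a negative interaction favours a positive change with RSV alone. These signs and the shares above therefore describe the choice and do not test it.

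The size of the interactions rests on how counts are scaled. RSV+TCDD replicate 2 had the most counts on ERCC spike-ins, 19166, against 5366 to 11865 in the other libraries. Scaling to these spike-ins moved the median of all genes by -0.51 for TCDD against vehicle, -0.17 for RSV against vehicle and -0.52 for the interaction. The interactions of the 9 genes on that scale ran from -2.50 for RNASE1 to -1.19 for SLC7A8. Their sign was negative in every setting in which they were tested. On the spike-in scale, however, none of the 9 passed the edgeR test (9 had an unadjusted p below 0.05). DESeq2 was not run on the spike-in scale, and with its own size factors it called 9. Since the 9 genes were chosen on this interaction, these signs and counts describe the choice and do not test it. Without TCDD replicate 1 the genes called in the interaction dropped to 4, with 2 of the 9 genes among them.

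RSV+Vem against Vem asks whether RSV moves these genes in cells exposed to Vem in place of TCDD. Its 4 libraries are in neither arm of the interaction, but they entered the fit that estimated the spread behind the interaction calls: with only the libraries compared, 4 of the 9 genes were called in the interaction. TMEM2 rose, and LGI3, FN1 and CSRP2 fell. Calls were thus made for 4 of the 9 genes, with 1 higher and 3 lower, beside 37.9% of all tested genes, 3079 of them higher and 3009 lower. The libraries of Vem and RSV+Vem did not overlap for 7 of the 9 genes, beside 70.6% of all genes. Both counts are close to these percentages of 9 genes, so neither is a result about the set as a whole. The median log2 change of the 9 genes was 0.10, beside 0.03 over all genes.

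LGI3 fell by 1.49 on the log2 scale (95% interval -1.81 to -1.16, edgeR adjusted p = 8.12e-07), a level 2.80-fold lower, with 17.2 and 12.4 CPM in RSV+Vem against 41.0 and 43.7 in Vem. FN1 fell by 0.81 (-1.05 to -0.57, edgeR adjusted p = 2.75e-05), and CSRP2 fell by 0.70 (-0.91 to -0.48, edgeR adjusted p = 3.58e-05). Both RSV+Vem libraries were below both Vem libraries in these 3 genes. TMEM2 rose 2.26-fold, a log2 change of 1.18 (0.97 to 1.39, edgeR adjusted p = 7.78e-08), and both of its RSV+Vem libraries were above both Vem libraries. The summed melanocytic level was lower with RSV+Vem than with Vem, as given above, and RIN was 8.7 and 8.6 in the RSV+Vem libraries against 9.2 and 9.7 in the Vem libraries. The part of either in these changes was not tested. Scaled to the ERCC spike-ins, which widened the standard errors, LGI3 (-1.47), FN1 (-0.91), CSRP2 (-0.72) and TMEM2 (1.13) kept their direction, and none of the 4 passed the edgeR test (3 of the 9 genes had an unadjusted p below 0.05). With 2 libraries against 2, permuting the libraries of 1 gene (exact, two-sided) cannot give a p below 0.333, so the calls rest on the spread shared across genes.

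The other 5 genes did not pass the test. YWHAH changed by 0.10 (-0.08 to 0.29, edgeR adjusted p = 0.368), ARMC9 by 0.10 (-0.13 to 0.34, adjusted p = 0.503), SLC7A8 by 0.14 (-0.04 to 0.32, adjusted p = 0.202) and LUM by 0.11 (-0.35 to 0.58, adjusted p = 0.717). RNASE1 had 0.73 (-0.06 to 1.52, adjusted p = 0.134). This value depended on single Vem libraries of few counts: it was 0.20 without Vem replicate 1 and 1.49, then past the threshold (adjusted p = 0.0261), without Vem replicate 2. Adjusted p over its alternatives ranged from 0.0261 to 0.766.

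**Figure D3:**
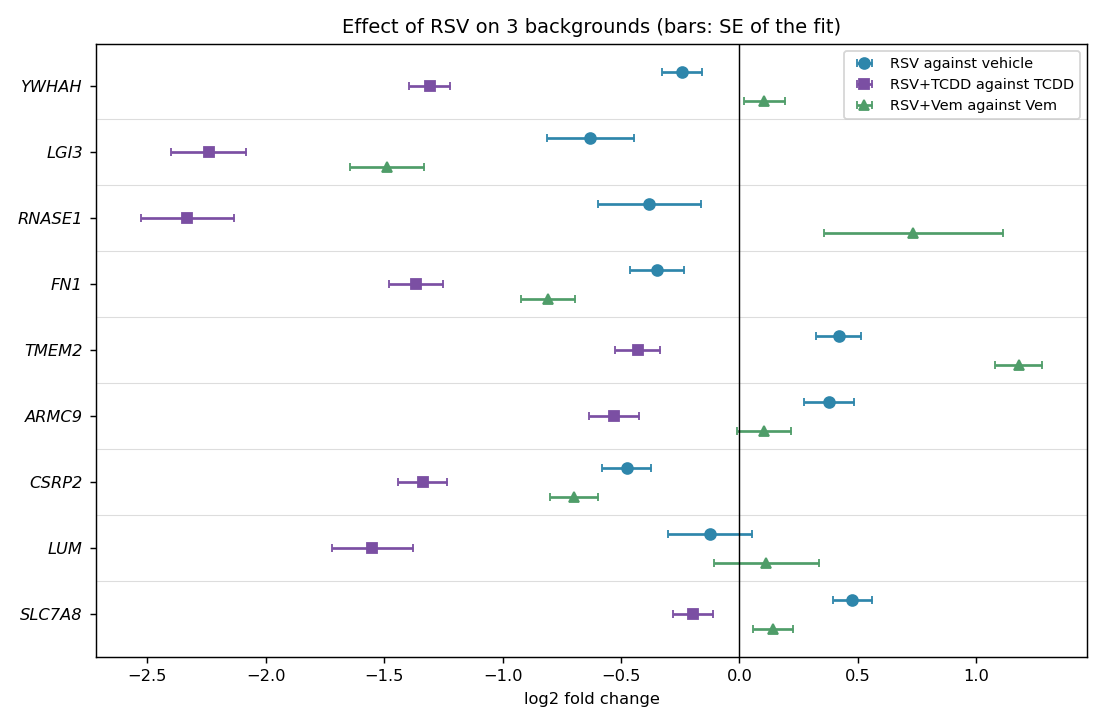
Log2 fold change by RSV (horizontal axis) on vehicle (circles), on TCDD (squares) and on Vem (triangles) for the 9 genes, with bars of 1 SE of the fit and 2 libraries per group. The squares lie between -2.33 and -0.20, whereas the triangles spread from -1.49 for LGI3 to 1.18 for TMEM2.

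Vem against vehicle shares the vehicle libraries with the selection and is given as values. LGI3 was 2.49 higher on the log2 scale and CSRP2 0.48 higher. RNASE1 had -2.50, TMEM2 -1.56, LUM -1.09, FN1 -0.80 and YWHAH -0.50, and ARMC9 (-0.04) and SLC7A8 (0.00) were at the vehicle level with overlapping libraries. The 9 genes thus went in the same direction with TCDD by selection, and in both directions with Vem.

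Pairs of the 9 genes were correlated accordingly. Pearson's r of log2 CPM over the 12 libraries was 0.68 in the median of the 36 pairs, from -0.50 for LGI3 with TMEM2 to 0.95 for RNASE1 with LUM, with 4 pairs below 0. Over the 8 libraries without Vem, those used for the selection, r was 0.82 in the median and from 0.32 for CSRP2 with SLC7A8 to 0.99 for LGI3 with CSRP2. The libraries come in pairs of the same treatment, so these coefficients describe 6 group levels more than 12 independent points.

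**Figure D4:**
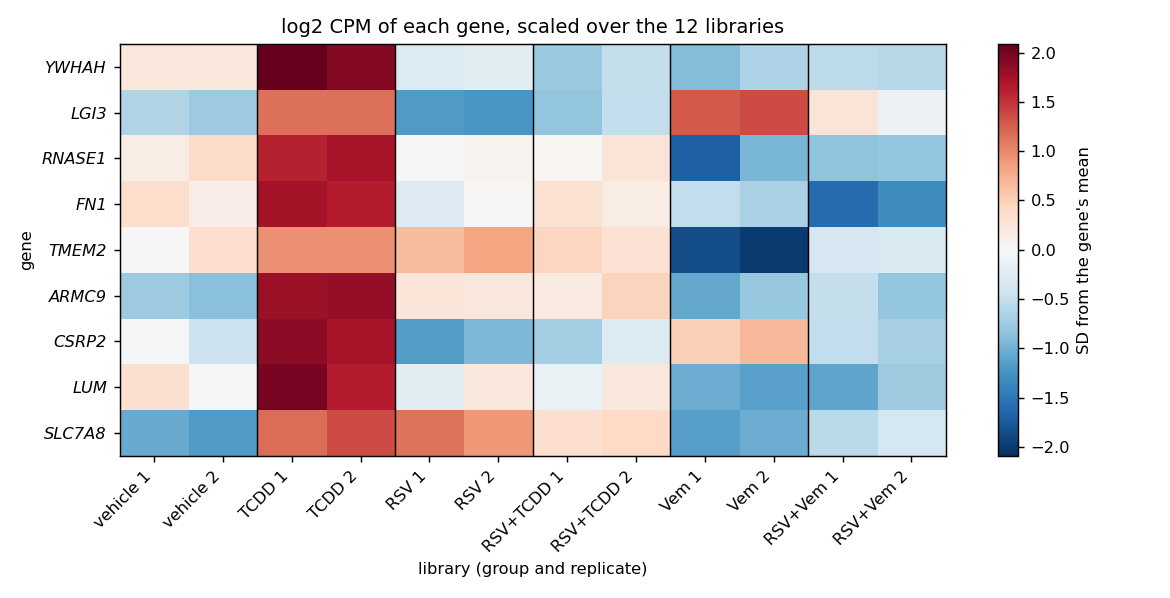
log2 CPM of each gene (rows) in each library (columns, by group and replicate), scaled to mean 0 and SD 1 over the 12 libraries, with red above and blue below the gene's mean. The TCDD columns are red for all 9 genes, and the Vem columns are red for LGI3 and CSRP2 and blue for the other 7.

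Genes outside the set whose log2 CPM was among the most like the mean scaled profile of the 9 genes, among 13675 genes with a mean of at least 1 CPM, were SAT1 (r = 0.95), NQO1 (0.94), ANKRD28 (0.94) and ANGEL1 (0.93), over 12 libraries. They were picked for likeness to genes selected on the interaction, which favours a smaller TCDD effect with RSV. SAT1, an enzyme of polyamine breakdown, had a TCDD effect of 1.22 without RSV and 0.55 with it. ANKRD28 had 0.48 and 0.09, and ANGEL1 had 0.42 and -0.03. NQO1, a quinone reductase of the AhR and NRF2 responses, had 1.04 and 0.01, and was the only gene of these 4 called in the interaction.

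Relatives and partners of the 9 genes and an AhR battery formed 10 lists of 93 genes, of which 57 could be tested. In the interaction 2 of the 57 were called, beside 0.0124% of all tested genes higher and 0.137% lower. Both were lower and both in the AhR battery: CYP1A1 (-3.32 ± 0.17 SE, edgeR adjusted p = 1.50e-09) and NQO1 (-1.03 ± 0.13, adjusted p = 0.000918). The mean CYP1A1 level was 23.3 CPM with vehicle, 144 under TCDD, 68.3 with RSV and 42.0 with RSV+TCDD, so RSV raised it alone (1.55, adjusted p = 4.36e-08) and it was lower with TCDD and RSV than with TCDD. The median interaction of the 8 tested battery genes was -0.45. That of the 14-3-3 proteins other than YWHAH was 0.03, of the LGI family and its ADAM receptors -0.04, of the SLC7 transporters and heavy chains 0.13, of the fibronectin receptors and assembly genes 0.07, of the hyaluronan genes -0.05, of the CRP family -0.23, of the RNase A family 0.08 and of the ciliary partners of ARMC9 0.04. PRELP, the only small leucine-rich proteoglycan besides LUM with enough reads, had 0.41.

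For TCDD against vehicle 7 list genes rose and 1 fell of 57, beside 4.72% of all tested genes higher and 2.01% lower. Without vehicle replicate 2 the split was 4 higher and 4 lower, and without TCDD replicate 1 it was 4 and 1. Of the 8 battery genes tested 5 rose, led by CYP1A1 (2.62, edgeR adjusted p = 3.60e-10), CYP1B1, another cytochrome of this response (2.20, adjusted p = 0.0298), and NQO1 (1.04, adjusted p = 1.44e-06). The level of CYP1B1 was low, at a mean of 0.16 CPM with vehicle and 0.74 CPM under TCDD, and the SE of its change was 0.58. FBLN1, a fibulin that binds fibronectin, rose by 0.79 (adjusted p = 0.0023) and PRELP by 1.11 (adjusted p = 0.0138). SLC7A11, the cystine transporter, fell by 0.91 on the log2 scale (adjusted p = 0.000437). Mean levels of FBLN1 were 17.0 CPM with RSV and 25.6 CPM with RSV+TCDD, and those of PRELP 1.60 and 4.56 CPM.

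For RSV against vehicle 11 of the 57 list genes rose and 16 fell, beside 20.5% of all tested genes higher and 20.2% lower. In the fibronectin list 4 of 9 rose in this comparison and 1 fell. TGM2, a transglutaminase that cross-links fibronectin (1.94, adjusted p = 1.45e-07), and ITGA5, the integrin chain that binds it (1.90, adjusted p = 0.000127), rose. ITGA5 was low, at a mean of 1.03 CPM with vehicle and 3.82 CPM with RSV. The gene that fell was ITGB1 (-0.43, edgeR adjusted p = 0.00143), from a mean of 285 CPM with vehicle to 211 CPM with RSV. Of the 5 other 14-3-3 genes tested 4 fell, beside the 20.2% lower over all genes, with YWHAZ changed the most (-0.96, adjusted p = 9.97e-06). For RSV+Vem against Vem 14 of the 57 list genes rose and 14 fell, beside 19.1% of all tested genes higher and 18.7% lower, a background to read each list's count against. In the fibronectin list 4 of 9 rose and 1 fell, while FN1 itself fell. The risers were led by TGM2 (2.25, adjusted p = 1.15e-06), ITGA5 (1.40, adjusted p = 0.0220) and FBLN1 (0.78, adjusted p = 0.00192). ITGA5 was again low, at a mean of 0.54 CPM with Vem and 1.39 CPM with RSV+Vem. Of the 8 hyaluronan genes 2 rose and 2 fell, among them the synthases HAS3 (1.11, adjusted p = 0.00518) and HAS2 (-1.21, adjusted p = 5.41e-06) and the receptor HMMR (1.10, adjusted p = 0.0120). Of the 4 genes tested in the list of the LGI family and its ADAM receptors 2 fell, ADAM11 (-0.82, adjusted p = 0.00101) and ADAM23 (-0.69, adjusted p = 3.62e-05), and the other 2, ADAM22 (-0.23, adjusted p = 0.209) and LGI4 (1.5, adjusted p = 0.317), did not pass.

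In the same comparison 3 of the 5 14-3-3 genes fell: YWHAB (-0.34, adjusted p = 0.00709), YWHAZ (-0.30, adjusted p = 0.0497) and YWHAE (-0.27, adjusted p = 0.0265). Of the 9 SLC7 transporters and heavy chains 2 rose and 3 fell, among them SLC7A7 (0.82, adjusted p = 0.00217), SLC7A11 (0.61, adjusted p = 0.00134) and SLC7A5 (-0.60, adjusted p = 5.13e-05). Of the 9 ciliary partners 2 rose and 1 fell, among them RPGRIP1L (0.46, adjusted p = 0.0144) and INPP5E (-0.56, adjusted p = 0.00478). RNH1, the inhibitor of RNASE1, fell by 0.67 on the log2 scale (adjusted p = 0.000144), and neither PRELP nor the 2 CRP family genes passed. In the AhR battery 4 of 8 rose and 1 fell, led by AHR itself (1.42, adjusted p = 8.11e-08), TIPARP (0.94, adjusted p = 8.20e-06) and CYP1A1 (0.94, adjusted p = 3.29e-05). The median change over all lists was -0.04.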

How the data were processed

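Stranded mRNA libraries of 501Mel cells were sequenced as read pairs. The authors aligned the reads to hg19 (GRCh37) with STAR 2.4.0a and counted primary read pairs per gene symbol with featureCounts of Subread 1.5.0-p3. What was deposited is the table of raw counts, not normalized and not corrected for PCR copies, so that counting error is a lower limit on the error. Genes that share a symbol share a count, and reads of genes overlapping on opposite strands may not be separated.

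Here 96 control sequences were removed (0.0310% to 0.0936% of counts), and filterByExpr by group left 16080 of 56638 symbols. Counts were scaled with TMM factors (0.890 to 1.08). edgeR 4.0.16 in R 4.3.3 was used for 1 quasi-likelihood fit of group means to the 12 libraries, with robust dispersions. Adjustment was by Benjamini-Hochberg over all tested genes, with a common biological coefficient of variation of 0.0915. Replicates differed beyond counting noise (chi-square over its degrees of freedom 4.80 to 23.4). Levels are CPM, log2 CPM used a prior count of 2, and intervals are 95%. Positions and exons are from GENCODE v44 lifted to GRCh37, since the release counted is not given in the sources used here. Promoters are from RefSeq.

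The 9 genes and the lists were chosen with earlier results of these data known. Named were the 9 genes, other genes called in the interaction, in each list the genes called in the interaction or up to 3 called genes with the largest change in RSV+Vem against Vem and in TCDD against vehicle, and the 5 genes with the most similar profile. Results of some genes that this names are not reported here. List genes named for RSV against vehicle were chosen after their values were seen. Alternatives were DESeq2 1.42.0, RLE factors, ERCC scaling (92 spike-ins), no filter, a minimum of 10 counts per library, a replicate block, a fit to the compared libraries alone, and leaving out each library, and dispersions without robust estimation were added after seeing the data. The steps were tested on simulated data. Figures were drawn with matplotlib 3.10.9.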

Additional observations from a re-analysis of the deposited data

Results flagged for a closer look

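Besides the 9 genes, 15 genes had an effect of TCDD that differed between cells with and without RSV by the interaction test (edgeR quasi-likelihood, Benjamini-Hochberg adjusted p below 0.05, 2 libraries per group), and are given for that reason. These values come from the comparison that chose the 9 genes. The CYP1A1 interaction was -3.32 on the log2 scale (adjusted p = 1.50e-09), larger than that of any of the 9 genes, and that of NQO1 was -1.03. CD96, a receptor of lymphocytes, had -2.90 on few reads, between 2 and 125 counts per library. SERTAD4 had -1.76, NAT16 -1.37, DACT1, a modulator of Wnt signalling, -1.13, and IER5, an immediate early response gene, -1.08. Reads were also few for SERTAD4, with 17 to 147 counts per library, and for DACT1, with 14 to 248. BMF, a proapoptotic member of the BCL2 family, had -0.88, TUBB3, a neuronal beta tubulin, -0.83, LIMK2, a kinase that acts on cofilin and actin, -0.82, and PRDM2 -0.74. Among transcripts with clone names, RP11-1220K2.2 had -2.09, on 5 to 281 counts per library, and RP11-726G1.1 had -1.19. The 2 genes with a positive interaction were RP11-429E11.2 (1.30) and HEY1, a target of Notch (0.69): the TCDD effect on HEY1 was -0.14 without RSV and 0.55 with it.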

How the results depend on the processing

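The interactions of the 9 genes were negative in each setting in which the gene was tested (RNASE1 was lost when at least 10 counts were required in every library). Because the 9 genes were chosen on this interaction, their signs and calls in these settings describe the choice and do not test it. Of 143 alternative values 121 moved by less than the spread between replicates and 22 by more. All 9 stayed called with DESeq2, RLE factors, no filter, the replicate block and dispersions without robust estimation, 4 with only the libraries compared, 0 with ERCC scaling (edgeR, 9 at an unadjusted p below 0.05), and between 2 (without TCDD replicate 1) and 9 when a library was left out. The number of genes called in the interaction, 24, was 77 with DESeq2 (26 higher, 51 lower), 170 with no filter (88 higher, 82 lower), 15 with at least 10 counts, 7 with only the libraries compared and 1 with ERCC scaling, and 4 (without TCDD replicate 1) to 179 (without vehicle replicate 2: 126 higher, 53 lower) when a library was left out. With ERCC scaling RSV+Vem against Vem had 389 genes called (334 higher, 55 lower, against 6088), of the 9 genes 0 in place of 4 (edgeR, 3 at an unadjusted p below 0.05), and list genes numbered 1 for the interaction, 1 for RSV+Vem against Vem, 1 for TCDD and 2 for RSV. The cause of these moves was not tested. The list genes called for TCDD were 5 to 8 when a library was left out, with 5 without TCDD replicate 1 and 4 higher and 4 lower without vehicle replicate 2. For RSV+Vem against Vem LUM was between -0.018 (without RSV+Vem replicate 2, its sign reversed) and 0.29 when a library was left out, RNASE1 passed without Vem replicate 2, and the other calls of the 9 genes changed with ERCC scaling only. The replicate block gave 30 genes for the interaction and 6172 for RSV+Vem against Vem, and left 4 of the 9 genes called. Same-numbered libraries of 2 groups deviated together with correlations of -0.121 to 0.155 over 15 pairs of groups. The highest were RSV with RSV+TCDD (0.155), RSV with RSV+Vem (0.149) and RSV+TCDD with RSV+Vem (0.117). Such values cannot settle whether same-numbered libraries were handled together. With 9 to 33 counts of RNASE1 in the Vem and RSV+Vem libraries, depth limits that gene most.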
